A study of Bos taurus with 10 samples.

Results

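Fatty acid desaturases and elongases were followed in the liver of Holstein dairy cows as the probe sets, sets of short array probes that read a transcript, whose single gene symbol in the platform annotation was SCD, FADS1, FADS2, ELOVL1, ELOVL2, ELOVL5, ELOVL6 or ELOVL7. Of these 8 genes 6 were found, each with 1 probe set, among 9155 genes named on the array. FADS1 and ELOVL2 had no probe set under that rule and were not analysed here.

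The CLA group was given a fat, protected from the rumen, that carried conjugated linoleic acid (CLA). CLA stands for linoleic acid isomers whose double bonds are separated by a single bond. The control group was given a rumen-protected control fat. Each cow was hand-fed 630 g (dry matter) daily of a concentrate that held 27.3% of either fat, starting in week 3 before calving and ending in week 14 of lactation, and all cows shared the same mixed ration and ordinary concentrate. The cows were first-calf and older females, 20 per group, with an average parity of 2.6 and no age given. Liver was biopsied in week 5 of lactation. RNA of 4 cows was combined per pool, with 5 CLA pools and 5 control pools and 1 array per pool, so p-values measure the spread between pools and the variation between cows within a pool is not seen. The question was which genes and pathways of the liver respond to this fat after calving.

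Desaturases put a double bond into a fatty acyl-CoA with electrons passed on by cytochrome b5 and its reductases. Elongases carry out the condensing step by which a fatty acid is lengthened with malonyl-CoA, and a reductase, a dehydratase and a further reductase complete the cycle. In mammalian liver SCD and ELOVL6 belong to the making of monounsaturated fat from newly made saturated acids, while FADS1, FADS2, ELOVL2 and ELOVL5 convert dietary linoleic and alpha-linolenic acid to long-chain polyunsaturated acids. Transcription of several of these genes is known to be raised by SREBP-1c and liver X receptors and lowered by polyunsaturated fatty acids, mostly from work in rodents. In cattle most fat is made in adipose tissue and the udder rather than in the liver.

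Values are log2 expression on the authors' normalized scale, and differences are CLA minus control. Over the 10 arrays the medians lay between 5.79 and 5.82 in the CLA pools and between 5.83 and 5.85 in the control pools, and any pair of arrays correlated at 0.988 to 0.996 across probe sets. CLA pool 2 and control pool 4 correlated least with the rest. The hepatocyte gene ALB, serum albumin, stood at 14.91 to 14.94 in the CLA pools and 14.83 to 14.91 in the control pools. Of 11 measured hepatocyte genes 9 were higher and 2 lower in the CLA pools (median 0.042). The split was 11 to 0 after subtraction of array medians, 7 to 4 after quantile normalization and 6 to 5 after cyclic loess. TF, transferrin, was 14.68 to 14.72 in the CLA pools and 14.60 to 14.67 in the control pools. Its difference was 0.064 ± 0.055 SE (limma's Benjamini-Hochberg adjusted p = 0.779). Adipocyte genes differed in level. ADIPOQ, adiponectin, the dimmest of 6 measured, lay between 3.03 and 3.25 in the CLA pools and between 2.97 and 3.35 in the control pools. CIDEA, the brightest, lay between 7.44 and 8.48 in the CLA pools and between 7.70 and 8.17 in the control pools. FABP4, a fatty acid binding protein of adipocytes, macrophages and capillary endothelium, was 8.39 in CLA pool 4, against 4.98 to 5.68 in the other CLA pools and 5.18 to 5.68 in the control pools. Of the 6 measured adipocyte markers 2 were higher and 4 lower in the CLA pools (4 and 2 under each of 3 other scalings), and their mean level was 5.28 to 5.92 there and 5.30 to 5.51 in the control pools. Of 12 measured T and NK lymphocyte genes 11 were lower in the CLA pools (median -0.18, 11 of 12 also under each of 3 other scalings). Their mean level was 5.93 to 6.15 in the CLA pools and 6.07 to 6.43 in the control pools, and ZAP70, which relays T cell receptor signals, was 6.58 to 6.86 in the CLA pools and 6.95 to 7.46 in the control pools, a difference of -0.44 ± 0.11 SE (limma's Benjamini-Hochberg adjusted p = 0.332). Of 10 Kupffer cell and macrophage genes 8 were lower and 1 higher (median -0.065), or 6 and 4 after subtraction of array medians. After quantile normalization and after cyclic loess 9 were lower and 1 higher (medians -0.088 and -0.083). Their mean level was 9.36 to 9.70 in the CLA pools and 9.38 to 9.84 in the control pools. Of 8 stellate cell and fibroblast genes 6 were higher (median 0.094), and of 6 erythroid genes 5 were lower (median -0.070). The erythroid gene HBA was 3.69 to 3.86 in the CLA pools and 3.90 to 4.24 in the control pools. Its difference was -0.24 ± 0.076 SE (limma's Benjamini-Hochberg adjusted p = 0.418). The part of these cells in the values below was not tested. In whole liver, fewer cells of a type and less RNA per cell cannot be told apart.

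None of the 6 desaturases and elongases differed between CLA and control pools beyond the spread between pools. In limma with Benjamini-Hochberg adjustment over 24016 probe sets, 0 of the 6 had an adjusted p under 0.05. At an unadjusted p under 0.05 the count was 0 of 6, beside 8.89% of all probe sets (4.01% with CLA above control, 4.88% with CLA below). That split over the array, 962 to 1173, turned to 1474 against 627 with array medians subtracted, 1100 against 817 with quantile normalization and 1196 against 779 with cyclic loess. The ordinary unmoderated test also gave 0 of 6 at either threshold. The adjusted test called 0 probe sets on the whole array. CLA and control pools overlapped for each of the 6 genes, while they did not overlap for 1.97% of all probe sets. The differences were 3 positive and 3 negative, with a median of 0.031. They were 4 positive and 2 negative after subtraction of array medians, where SCD turned to 0.021, and their median was -0.0080 after cyclic loess normalization. Over all probe sets the median was -0.018, with 43.5% higher and 55.9% lower. Absence of a call does not show that the enzymes were alike in both groups. The 95% intervals below give the range of differences compatible with the values of these pools.

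SCD, the desaturase that makes oleic and palmitoleic acid from saturated precursors, read 11.10, 10.89, 11.04, 10.66 and 11.29 in CLA pools 1 to 5, against 10.14, 11.07, 10.92, 11.77 and 11.13 in control pools 1 to 5. All CLA pools lay inside the range of the control pools, whose lowest and highest values were pools 1 and 4. The means were 11.00 ± 0.24 in the CLA pools and 11.01 ± 0.58 in the control pools (SD, n = 5 each). The difference was -0.01 ± 0.23 SE (limma's Benjamini-Hochberg adjusted p = 0.995), a fold of 0.993 with a 95% interval of 0.697 to 1.41. Single control pools decided its sign: SCD differed by -0.23 without control pool 1 and by 0.18 without control pool 4.

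FADS2, the desaturase that takes linoleic and alpha-linolenic acid into the long-chain pathway, read 12.97, 12.43, 12.89, 12.81 and 13.14 in CLA pools 1 to 5, against 12.71, 12.60, 12.82, 13.61 and 13.51 in control pools 1 to 5. Control pools 4 and 5 lay above every CLA pool, and the other 3 control pools fell within the CLA range. The difference was -0.20 ± 0.20 SE (limma's Benjamini-Hochberg adjusted p = 0.815), a fold of 0.869 with a 95% interval of 0.639 to 1.18. It was the largest of the 6 in size. It shrank to -0.062 without control pool 4, and without both CLA pool 2 and control pool 4 it was 0.042. The FADS2 signal was among the brightest on the array, above 99.3% of probe sets.

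ELOVL5, which elongates the polyunsaturated products of FADS2, read 12.06, 12.46, 12.25, 11.73 and 11.65 in CLA pools 1 to 5, against 11.92, 12.34, 12.05, 11.64 and 11.84 in control pools 1 to 5. Each group held high and low pools, with pool 2 highest in both. The difference was 0.072 ± 0.17 SE (limma's Benjamini-Hochberg adjusted p = 0.934), a fold of 1.05 with a 95% interval of 0.819 to 1.35. It turned to -0.036 without CLA pool 2 and -0.0075 without control pool 4.

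ELOVL6, which lengthens palmitic to stearic acid, read 7.50, 6.80, 7.74, 7.12 and 6.72 in CLA pools 1 to 5, against 6.62, 7.36, 7.12, 7.04 and 6.97 in control pools 1 to 5. CLA pools 1 and 3 stood above all control pools, but CLA pools 2 and 5 stood below 4 of the 5 control pools. The difference was 0.15 ± 0.19 SE (limma's Benjamini-Hochberg adjusted p = 0.863), a fold of 1.11 with a 95% interval of 0.829 to 1.49. Without CLA pool 3 it was 0.013.

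ELOVL1, which makes very long saturated and monounsaturated acids for sphingolipids, read 8.18, 8.40, 8.17, 8.02 and 8.48 in CLA pools 1 to 5, against 8.42, 8.20, 8.34, 8.49 and 8.45 in control pools 1 to 5. CLA pools 1, 3 and 4 lay below all control pools. The difference was -0.13 ± 0.096 SE (limma's Benjamini-Hochberg adjusted p = 0.735), a fold of 0.914 with a 95% interval of 0.790 to 1.06, the narrowest of the 6. This gene kept its sign in all 20 alternative settings, between -0.19 and -0.072, with 0 at an unadjusted p under 0.05. ELOVL6 also kept its sign in all 20, and ELOVL7 in the 19 that included it. Several of these settings could not change the sign of a gene with 1 probe set. They were the pool-number block, the dim-probe filter, trend and robust eBayes, the unmoderated test and gene means.

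ELOVL7, an elongase of long saturated acids, had a dim probe set, above only 10.3% of the others. It read 3.11, 3.51, 3.11, 3.30 and 3.37 in CLA pools 1 to 5, against 3.05, 3.23, 3.27, 3.29 and 2.85 in control pools 1 to 5. The difference was 0.14 ± 0.11 SE (limma's Benjamini-Hochberg adjusted p = 0.742), a fold of 1.10 with a 95% interval of 0.939 to 1.30. Without control pool 5, the lowest of the 10, it was 0.070. A change in a signal near the bottom of the scale can be understated, and no detection call was used here. The exact two-sided permutation p over all groupings of the 10 pools into 5 and 5 lay between 0.230, for ELOVL1, and 0.960, for SCD, where the smallest the design allows is 0.0079.

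**Figure D1:**
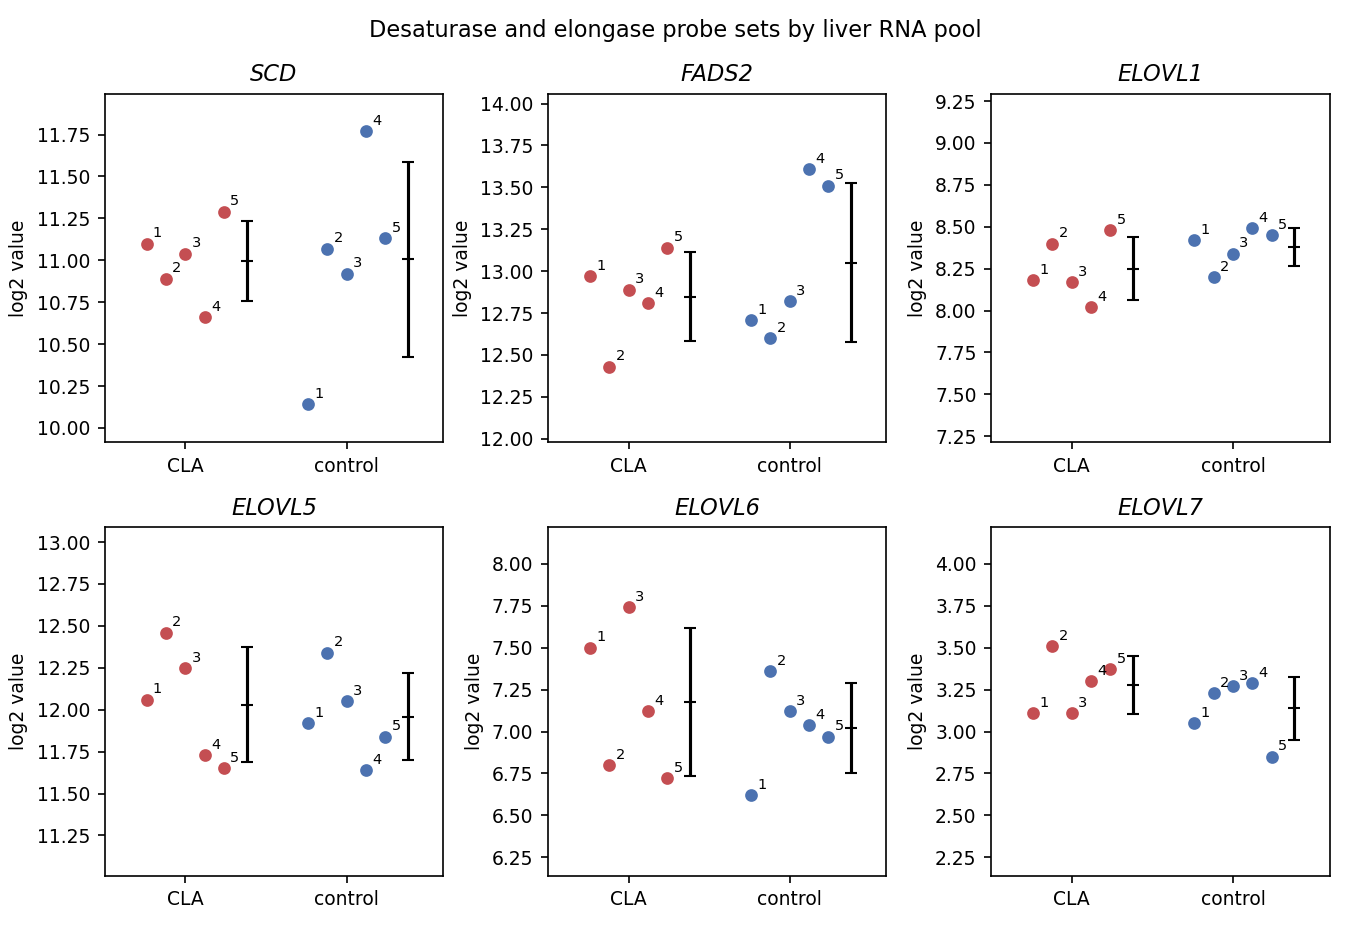
Log2 value of each desaturase and elongase probe set in each pool, with CLA pools left and control pools right in each panel. Points are pools, numbered 1 to 5, bars are the mean and SD (n = 5), and every panel spans the same log2 range. The groups overlap for all 6 genes, and SCD spans 10.14 to 11.77 in the control pools.

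The 4 genes of fat synthesis and polyunsaturated conversion varied widely between pools within the groups. The SD within groups was 0.445 for SCD, 0.383 for FADS2, 0.365 for ELOVL6 and 0.304 for ELOVL5, which placed them above 97.1%, 95.5%, 94.9% and 91.8% of all probe sets. ELOVL1, at 0.155, stood near the middle of the array (51.8%) and ELOVL7, at 0.180, not far above it (65.8%). From the lowest to the highest pool SCD spanned 3.10-fold, FADS2 2.27-fold, ELOVL6 2.17-fold and ELOVL5 1.77-fold. SCD spanned 0.63 on the log2 scale in the CLA pools and 1.63 in the control pools, and ELOVL6 spanned 1.02 in the CLA pools and 0.74 in the control pools. Whether these spreads differ between the groups was not tested.

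How the members moved with each other was read from the 10 pools with the group means removed, over 15 pairs. SCD and FADS2 tended to be high in the same pools (Pearson's r = 0.68, permutation p = 0.0236, Benjamini-Hochberg adjusted p = 0.177; Spearman's rho = 0.75, permutation p = 0.0178, adjusted p = 0.134). The r was 0.49 without control pools 1 and 4, the 2 farthest in SCD. FADS2 and ELOVL5 went opposite ways (r = -0.73, permutation p = 0.0198, adjusted p = 0.177; rho = -0.75, permutation p = 0.0174, adjusted p = 0.134). That r was -0.70 without control pools 4 and 5, the 2 farthest in FADS2, and -0.50 without CLA pool 2 and control pool 4. ELOVL1 and ELOVL6 also went opposite ways (r = -0.66, permutation p = 0.0387, adjusted p = 0.194; rho = -0.62, permutation p = 0.0595, adjusted p = 0.298), with r = -0.78 without CLA pools 4 and 5, the 2 farthest in ELOVL1. None of the 15 pairs passed the adjusted test. SCD and ELOVL6, which act in the same monounsaturated route, had r = 0.27 (permutation p = 0.464, adjusted p = 0.689; rho = 0.16, permutation p = 0.657, adjusted p = 0.758), and r = -0.032 without control pools 1 and 4.

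A feature of the arrays tended to move with 2 of these genes, though neither relation had an adjusted p under 0.05. The SD of all values on an array, with group means removed, went with ELOVL5 (r = 0.69, permutation p = 0.0274, adjusted p = 0.0981 over 6 genes; rho = 0.72, permutation p = 0.0232, adjusted p = 0.104) and against FADS2 (r = -0.67, permutation p = 0.0327, adjusted p = 0.0981; rho = -0.68, permutation p = 0.0345, adjusted p = 0.104). Without control pool 5 and CLA pool 5, the 2 farthest in array SD, r was 0.69 for ELOVL5 and -0.45 for FADS2. With array SD taken out by regression, r was -0.50 between FADS2 and ELOVL5, 0.73 between SCD and FADS2 and -0.66 between ELOVL1 and ELOVL6.

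The partners of the enzymes were read from 5 lists of pathway genes, in which 46 of 64 symbols were measured, each by its brightest probe set. Of the 46 genes 26 were higher and 20 lower in the CLA pools (median 0.022). With quantile normalization it became 22 against 24, with cyclic loess 21 against 25 and with array medians subtracted 30 against 16. In limma 0 passed the test with Benjamini-Hochberg adjustment over the array, and 4 had an unadjusted p under 0.05, all 4 higher. That is 8.70% of them, beside 8.89% of all probe sets in either direction and 4.01% with CLA above control. By the brightest probe set of each of 9155 genes, 398 were higher and 380 lower at that threshold.

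Among the brightest probe sets SCP2 had the smallest p. It encodes the thiolase and sterol carrier protein of peroxisomes, the organelle in which the last chain-shortening step to docosahexaenoic acid takes place. It read 12.58, 12.60, 12.73, 12.58 and 12.78 in CLA pools 1 to 5, against 12.34, 12.33, 12.47, 12.33 and 12.41 in control pools 1 to 5. Every CLA pool lay above every control pool. The difference was 0.28 ± 0.068 SE (limma's unadjusted p = 0.00146, Benjamini-Hochberg adjusted p = 0.327), a fold of 1.21, and over the 20 alternative settings it stayed between 0.24 and 0.31 with an adjusted p of 0.222 or more. In its list of 7 measured genes for the use of long-chain polyunsaturated acids 5 were higher and 2 lower (median 0.064), the same split as under the 3 other scalings, among them LPCAT3, which puts such acids into phospholipids, at 0.070 ± 0.12 SE.

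Among 15 regulators 7 were higher and 8 lower (median -0.002), a split of 9 to 6 after subtraction of array medians. INSIG1 and INSIG2, which hold SREBP precursors in the endoplasmic reticulum, differed by 0.35 ± 0.16 SE (limma's unadjusted p = 0.0497, Benjamini-Hochberg adjusted p = 0.562) and 0.32 ± 0.13 SE (unadjusted p = 0.0325, adjusted p = 0.527). The unadjusted p rose above 0.05 in 16 of 20 alternative settings for INSIG1, which differed by 0.19 without both CLA pool 2 and control pool 4, and in 9 of 20 for INSIG2. INSIG1 lay in the CLA pools between 11.88 and 12.23 and in the control pools between 11.25 and 12.23, and INSIG2 between 8.87 and 9.37 in the CLA pools and between 8.39 and 8.94 in the control pools. The 2 other INSIG2 probe sets differed by 0.11 and 0.19. Dimmer probe sets of SREBF2 and SCAP, further parts of the SREBP system, differed by -0.19 and 0.20 (limma's unadjusted p = 0.0235 and 0.0294, adjusted p = 0.497 and 0.513), where the brightest differed by -0.026 and -0.084. SREBF1, the gene of SREBP-1c, had a brightest probe set that differed by 0.054 ± 0.12 SE and 3 others that differed by -0.21 to -0.016. NR1H3, liver X receptor alpha, differed by 0.046 ± 0.10 SE.

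Of 7 electron donors and elongation partners 3 were higher and 4 lower (median -0.028), or 4 and 3 after subtraction of array medians. CYB5R4, a cytochrome b5 reductase, differed by 0.23 ± 0.10 SE (limma's unadjusted p = 0.0468, Benjamini-Hochberg adjusted p = 0.558) and by -0.12 at its second probe set. It was 0.15 without control pool 4 and 0.054 as the mean of both probe sets, and its unadjusted p rose above 0.05 in 11 of 20 alternative settings. CYB5A, the cytochrome b5 that serves the desaturases, differed by -0.054 ± 0.11 SE, and TECR, the last reductase of the elongation cycle, by -0.15 ± 0.097 SE. For substrate supply 8 of 13 genes were higher and 5 lower (median 0.020), which turned to 5 and 8 after cyclic loess and 6 and 7 after quantile normalization. Among the brightest probe sets there, the smallest p was that of SLC27A2, a very long-chain acyl-CoA synthetase, at 0.20 ± 0.097 SE (limma's Benjamini-Hochberg adjusted p = 0.574). ACSL3, a long-chain acyl-CoA synthetase of the endoplasmic reticulum and lipid droplets, had a dimmer probe set with a smaller p than any of these or SCP2, given here after its values were seen. It lay between 7.22 and 7.34 in the CLA pools and between 6.33 and 7.02 in the control pools, without overlap, and differed by 0.51 ± 0.12 SE (limma's unadjusted p = 0.00131, Benjamini-Hochberg adjusted p = 0.327). The brightest ACSL3 probe set differed by 0.12 ± 0.076 SE, the third by -0.054 ± 0.12 SE, and the mean of the 3 by 0.19. FASN, fatty acid synthase, differed by 0.020 ± 0.22 SE. Of the 4 other desaturases and elongases on the array, FADS3, which neighbours FADS2 in the bovine RefSeq assembly ARS-UCD2.0, differed most, by 0.18 ± 0.094 SE (adjusted p = 0.601). SCD5 differed by 0.11 ± 0.087 SE, DEGS1, the ceramide desaturase, by 0.024 ± 0.13 SE, while the brighter ELOVL4 probe set differed by -0.070 ± 0.11 SE and the dimmer by -0.16 (unadjusted p = 0.0411 in limma, adjusted p = 0.552).

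**Figure D2:**
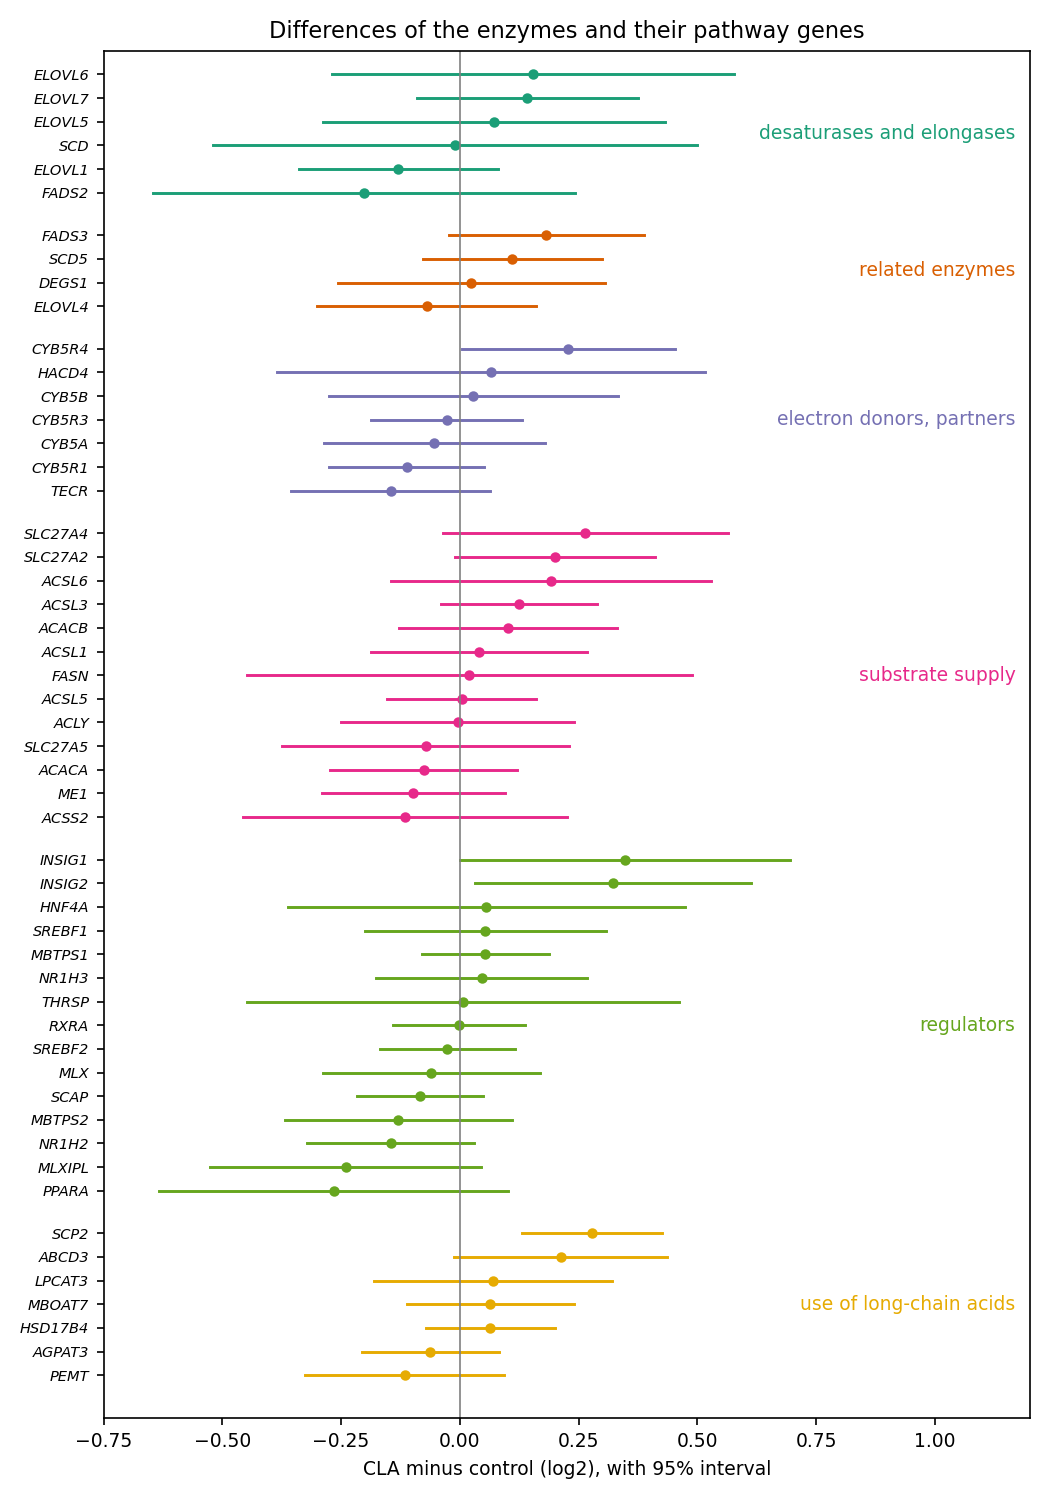
Difference between CLA and control pools on the log2 scale, with its 95% interval from limma, for the 6 desaturases and elongases and the 46 pathway genes by list, 1 probe set per gene. The 6 intervals of the enzymes include 0, and SCP2 at 0.28 lies farthest from 0 relative to its interval.

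Between pools, FADS2 varied closely with SLC27A5 and NR1H2 of these lists. Other list genes went against it, such as CYB5B (r = -0.75, permutation p = 0.0101, Benjamini-Hochberg adjusted p = 0.199). Of 276 relations between a member and a pathway gene, computed after the data were seen, 43 had an unadjusted permutation p under 0.05 and 2 passed the Benjamini-Hochberg adjustment on Pearson's r, both with FADS2. An r of at least 0.628 in size was met by 16.3% of these 276 and by 11.3% of the relations between a member and any other named gene of the array. SLC27A5, the bile acyl-CoA synthetase of liver, which can also activate very long-chain fatty acids, read 9.37, 8.85, 9.22, 9.18 and 9.36 in CLA pools 1 to 5, against 9.03, 8.96, 9.25, 9.61 and 9.49 in control pools 1 to 5. It varied with FADS2 over the 10 pools (r = 0.96, permutation p = 5e-05, adjusted p = 0.0138; rho = 0.98, permutation p = 1e-05, the smallest the resampling can give, adjusted p = 0.00276). The r was 0.95 without control pools 4 and 5, 0.93 without CLA pool 2 and control pool 4, 0.96 after quantile normalization and 0.94 with array SD taken out.

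NR1H2, liver X receptor beta, also went with FADS2 (r = 0.89, permutation p = 0.00015, adjusted p = 0.0207; rho = 0.91, permutation p = 0.00054, adjusted p = 0.0745), with r = 0.75 without control pools 4 and 5 and 0.87 with array SD taken out. NR1H2 covered 7.70 to 7.77 in the CLA pools and 7.68 to 8.06 in the control pools, so this relation rests mainly on the control pools. FASN went with FADS2 (r = 0.79, permutation p = 0.0052, adjusted p = 0.144; rho = 0.83, permutation p = 0.00485, adjusted p = 0.167) and with SCD (r = 0.74, permutation p = 0.0197, adjusted p = 0.226; rho = 0.89, permutation p = 0.00111, adjusted p = 0.0883). These r were 0.75 without control pools 4 and 5 and 0.65 without control pools 1 and 4. FASN itself had r = -0.75 with array SD, and its r with FADS2 was 0.59 with array SD taken out. THRSP, a lipogenic regulator known from rodent liver, went with SCD (r = 0.76, permutation p = 0.00409, adjusted p = 0.141; rho = 0.88, permutation p = 0.002, adjusted p = 0.0883), with r = 0.85 without control pools 1 and 4 and 0.80 with array SD taken out. The FASN and THRSP relations did not pass the adjusted test. ELOVL6 had its closest pathway partner in CYB5A (r = 0.83, permutation p = 0.00231, adjusted p = 0.128; rho = 0.82, permutation p = 0.00626, adjusted p = 0.179), with r = 0.84 without CLA pools 3 and 5 and 0.85 with array SD taken out.

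**Figure D3:**
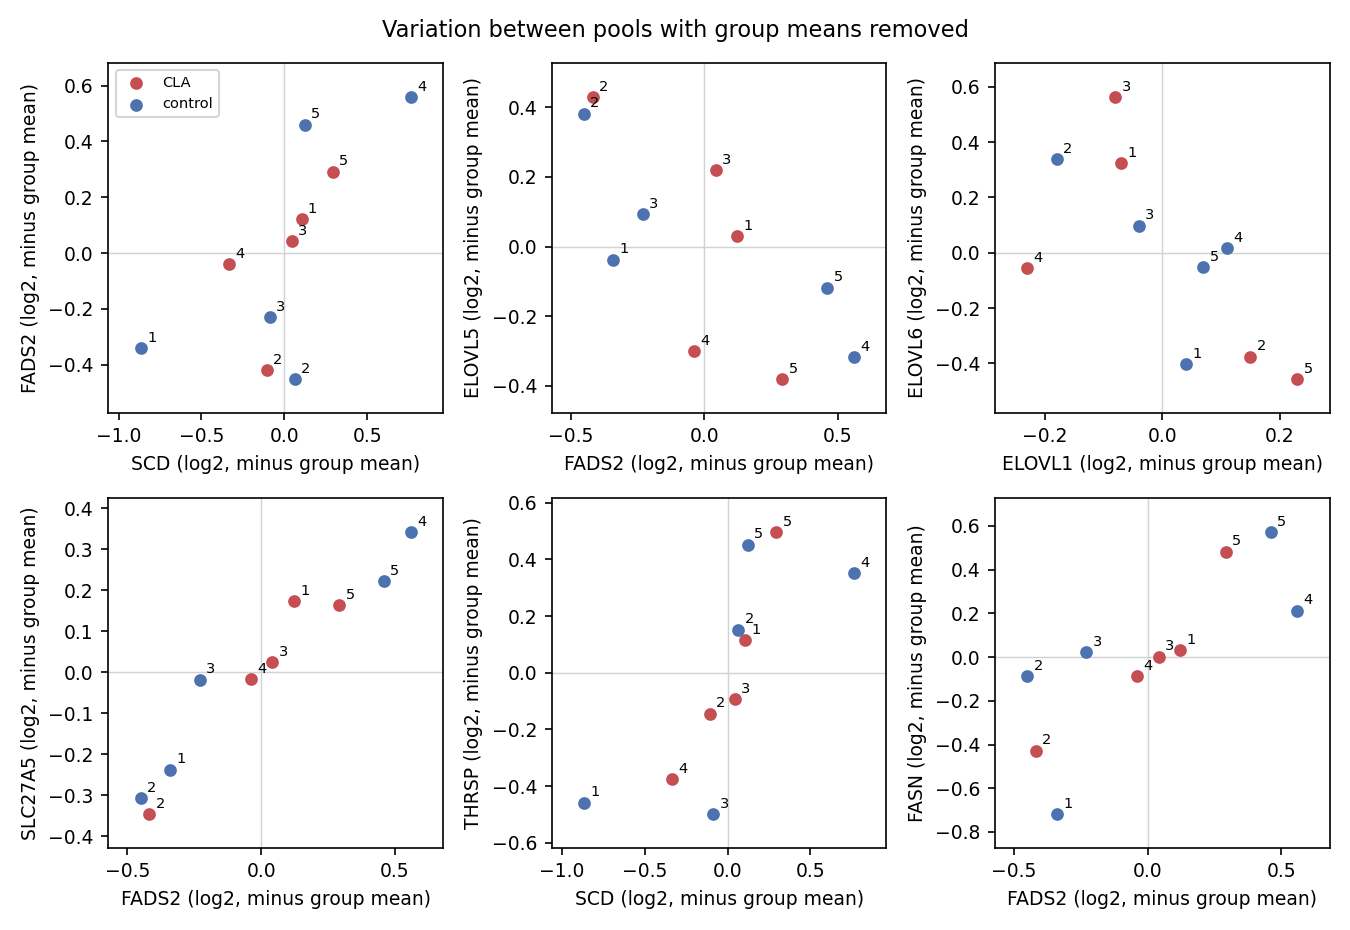
Variation between pools for 3 pairs of members (top row) and for members against SLC27A5, THRSP and FASN (bottom row), as log2 values minus the mean of the pool's own group. Points are pools, numbered 1 to 5, in red for CLA and blue for control. FADS2 and SLC27A5 lie close to a line, FADS2 and ELOVL5 slope downward, and control pools 1 and 4 mark the ends of the SCD axis.

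Over all other named genes on the array, 9149 in number, the patterns most like each member across the 10 pools were taken as the 3 highest Pearson's r with group means removed, as a description of a search over many genes. For FADS2 they were MRPL23 (0.98), SLC27A5 (0.96) and MACROD1 (0.95). For SCD they were MMP13 (0.97), ADAM23 (0.94) and SLC22A23 (0.90), of which MMP13, at a mean level of 2.77, lay near the dimmest values of the array. For ELOVL5 they were ELMO1 (0.97), TPX2 (0.95) and PXMP4 (0.95), and for ELOVL6 PRUNE2 (0.94), BZW2 (0.90) and DNAJA1 (0.89). ELOVL1 was most like CDK3, SMUG1 and PAN2 (0.96, 0.96 and 0.95) and ELOVL7 most like SFN, PPP1R8 and ADI1 (0.93, 0.93 and 0.91).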

How the data were processed

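Values were the log2 expression values deposited by the authors, 1 per probe set and array. Per the submitters' processing notes they were made with Affymetrix Expression Console 1.1 and RMA (order and settings: not given in the sources used here). Of 24128 probe sets, with values to 2 decimals, 112 manufacturer controls were removed and 24016 were tested: 13292 had 1 gene symbol in the platform annotation, 86 several and 10638 none. Gene identifiers of 13263 were found in RefSeq (ARS-UCD2.0), with 0 symbols changed.

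The comparison was fitted without covariates (limma 3.58.1, functions lmFit and eBayes, R 4.3.3). Depth does not apply to arrays; the number of arrays limits the precision. In simulated data with 24016 probe sets the fit recovered 34% of those changed 1.3-fold, 66% at 1.5-fold and 90% at 2-fold. The changed probe sets were drawn at random from the whole array, where the median SE of a difference was 0.095. SCD, FADS2, ELOVL6 and ELOVL5 had SEs of 0.17 to 0.23, so these shares do not apply to them. Recovery at their spread was not computed. Relations used 100000 permutations. Named genes were the members, pathway genes with an unadjusted p under 0.05, the smallest p of each list and the 3 closest patterns per member; others were chosen after their values were seen. Members and lists were chosen with earlier results of these data known. Alternatives were pools left out, the pool number as a block, 3 other scalings, a dim-probe filter, trend and robust eBayes, array weights, an unmoderated test and gene means.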

Additional observations from a re-analysis of the deposited data

Results flagged for a closer look

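FABP4 in CLA pool 4 stood at 8.39, far from the other CLA pools (4.98 to 5.68), a gap of 0.795 of the whole range of the group, above the critical value of 0.71 for 5 samples. Among 42 groups of pools checked this way, for 21 genes, it was the 1 that passed, and chance flags about 1 in 20 groups. In the same pool SCD (10.66) and ELOVL1 (8.02) were the lowest of the CLA pools, and ADIPOQ lay within 3.03 to 3.25 in all CLA pools. Without CLA pool 4 SCD differed by 0.074 and ELOVL1 by -0.072. The part of FABP4-expressing cells in these values was not tested. Listed genes outside the 21 checked also had a single far pool. HP was 8.90 in control pool 4 against 13.45 to 13.98 in the other control pools. CD14 was 9.60 in CLA pool 2 against 10.96 to 11.13 in the other CLA pools. The brighter ELOVL4 probe set was 3.83 in control pool 5 against 3.30 to 3.39 in the other control pools.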

How the results depend on the processing

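Under all 20 alternatives 0 of the measured enzymes had an adjusted or unadjusted p under 0.05. The count over all probe sets at an unadjusted p under 0.05 was 2135, ranged from 1575 to 2297 with single pools left out, and was 739 of 9155 with gene means, where fewer features were tested. The adjusted count was 0, and stayed 0 with any single pool left out; it was 1 without both CLA pool 2 and control pool 4, an alternative chosen after seeing the data, the called gene being CGN1 (0.97, adjusted p = 0.0302; 0.58 in all pools). In that setting SCD differed by 0.21, FADS2 by 0.042 and ELOVL5 by -0.12. SCD also turned positive after subtraction of array medians (0.021) and with array weights (0.049), where ELOVL5 was -0.013. With single pools left out SCD lay between -0.23 and 0.18, ELOVL5 between -0.036 and 0.17, and the median of the 6 enzymes between -0.033 and 0.11. That median was -0.0080 after cyclic loess normalization and -0.010 without the dimmest 30% of probe sets, which removed ELOVL7. The cause of these turns was not tested. The pool number as a replicate block cannot change a difference here, since each number holds 1 pool per group. With it 0 of 6 enzymes were called and 0 probe sets passed. Deviations of same-numbered pools correlated at -0.086 to 0.092, so the numbers were not taken as pairs. Of the 20 alternatives the unadjusted call ended in 16 for INSIG1, 11 for CYB5R4 and 9 for INSIG2, and held in all 20 for SCP2. For the dimmer ACSL3 probe set it held in every alternative that tested that probe set. With gene means the mean of the 3 ACSL3 probe sets was tested instead (0.19, limma's unadjusted p = 0.0226). FADS3 and SLC27A2 each reached an unadjusted p under 0.05 in 5 of the 20 alternatives.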
